A study of Mus musculus with 12 samples.

Results

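The 33 genes described here are known markers of quiescent hepatic stellate cells, or code for extracellular matrix proteins, their crosslinkers and inhibitors, and contractile proteins that these cells make when activated. They were chosen by symbol, and each was read from 1 probe set, the brightest on average of those naming that gene alone. All 33 were measured, out of 18194 genes on the array that could be read in this way. The values are log2 intensities, so a difference of 1 is a doubling, and levels are compared for 1 gene between arrays and never between genes.

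Hepatic stellate cells lie between the hepatocytes and the endothelium of the liver sinusoids, where they store vitamin A as retinyl esters and act as pericytes. In a healthy liver they are quiescent and secrete small proteoglycans, collectins and growth factors. After injury they can turn into myofibroblasts, which make fibrillar collagens, contractile filaments and inhibitors of matrix-degrading enzymes, and they are a main source of scar matrix. Many of the matrix genes are not private to stellate cells: Des, Acta2 and Tagln are also made by vascular smooth muscle, the fibrillar collagens by portal fibroblasts, Col4a1, Col4a2 and Sparc by endothelium, and Vim by most non-parenchymal cells.

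Liver RNA came from male mice of the 129J background on a regular diet, with 3 mice and 1 array each per group, and no agent was given. Iqgap2 codes for a scaffold protein, and the knockout (KO) mice lack it in the whole body, so that neither its role in hepatocytes nor its role in stellate cells is isolated. The 4 labelled groups were wild-type (WT) and KO mice at 6 months and at 24 months of age. Normal liver was sampled in all but the KO mice of 24 months, whose RNA came from liver tumors, described by the study as hepatocellular carcinoma (HCC), so that in this group age and tumor tissue cannot be told apart.

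The deleted gene went against the labels of a pair of groups. The brighter Iqgap2 probe set averaged 8.32 ± 0.07 (SD, n = 3) in arrays that carry the label WT 6 months and 8.29 ± 0.34 in KO 6 months, against 12.17 ± 0.21 in WT 24 months and 12.12 ± 0.06 in the arrays labelled KO 24 months tumor. The second Iqgap2 probe set separated the same groups, with means of 7.71, 7.36, 8.81 and 8.82. The deleted part of the gene is not given in the sources used here, so whether these probe sets lie in it is not known. The low level thus lies where WT 6 months is written, and the high level where KO 24 months tumor is written, as would be read if these labels had been exchanged. Groups are therefore named by their labels below, and each direction that involves either group depends on them. If the labels are exchanged, the arrays labelled WT 6 months would be KO tumors of 24 months, and those labelled KO 24 months tumor would be WT livers of 6 months. The comparison of the former with WT 24 months would then set KO tumors against WT liver of the same age, and that with KO 6 months would set KO tumors against younger KO liver. The comparison of WT 24 months with KO 6 months does not involve the doubtful labels, and the interaction of genotype and age has the same value either way. That comparison differs in both genotype and age, which it cannot separate.

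The arrays labelled WT 6 months stood below the 9 other arrays in most of these genes. Of the 33, 19 had all 3 of those arrays below every other array, and 2, Col4a1 and Timp1, had all 3 above. Over all genes 7.79% lay wholly below and 7.29% wholly above. The 19 were 9 of the 10 quiescent stellate markers, all 4 of the proteoglycan group, Col6a1, Col6a3, Tagln, Timp2, Tgfbi and Fbln5. None of the 4 fibrillar collagens was separated in either direction.

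**Figure D1:**
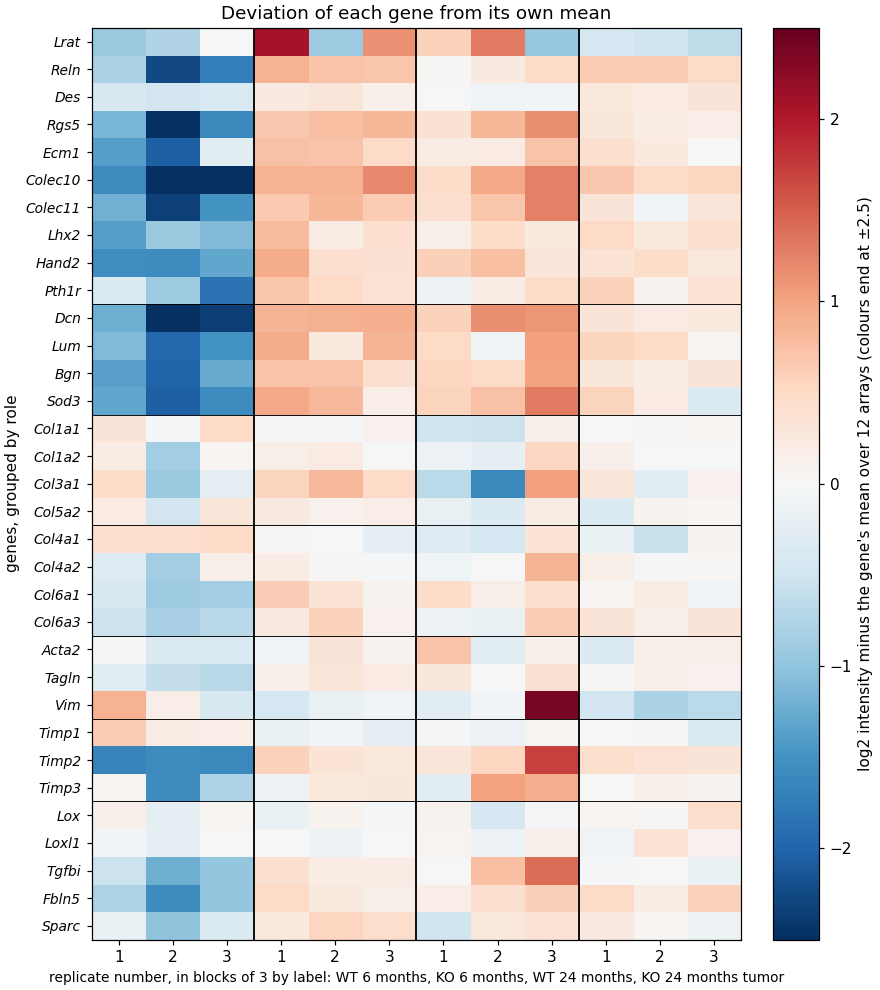
Each of the 33 genes in each of the 12 arrays, as log2 intensity minus the mean of that gene over all arrays, with genes in rows by role and arrays in columns by label. Most quiescent stellate markers and all proteoglycans are blue in the 3 arrays labelled WT 6 months and near or above their mean in the 9 others, whereas the rows of the fibrillar collagens show no such block.

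In limma, with p-values adjusted by Benjamini-Hochberg over all 18194 genes, 20 of the 33 genes were lower in the group labelled WT 6 months than in WT 24 months and 0 were higher. The background was 6.22% of all genes lower and 7.07% higher. The median difference of the 33 was -1.08, beside -0.01 over all genes. Against KO 6 months, 20 were lower and 1 was higher, with a median of -1.08 beside -0.05 over all genes, where 9.0% of all genes were lower and 8.04% higher. Against the arrays labelled KO 24 months tumor, 18 were lower and 1 higher, with a median of -0.83, and the background was 10.7% lower and 8.99% higher. These 3 comparisons share the arrays labelled WT 6 months and do not support each other independently. In RNA of whole tissue, fewer cells of a type and less RNA per cell cannot be told apart.

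**Figure D2:**
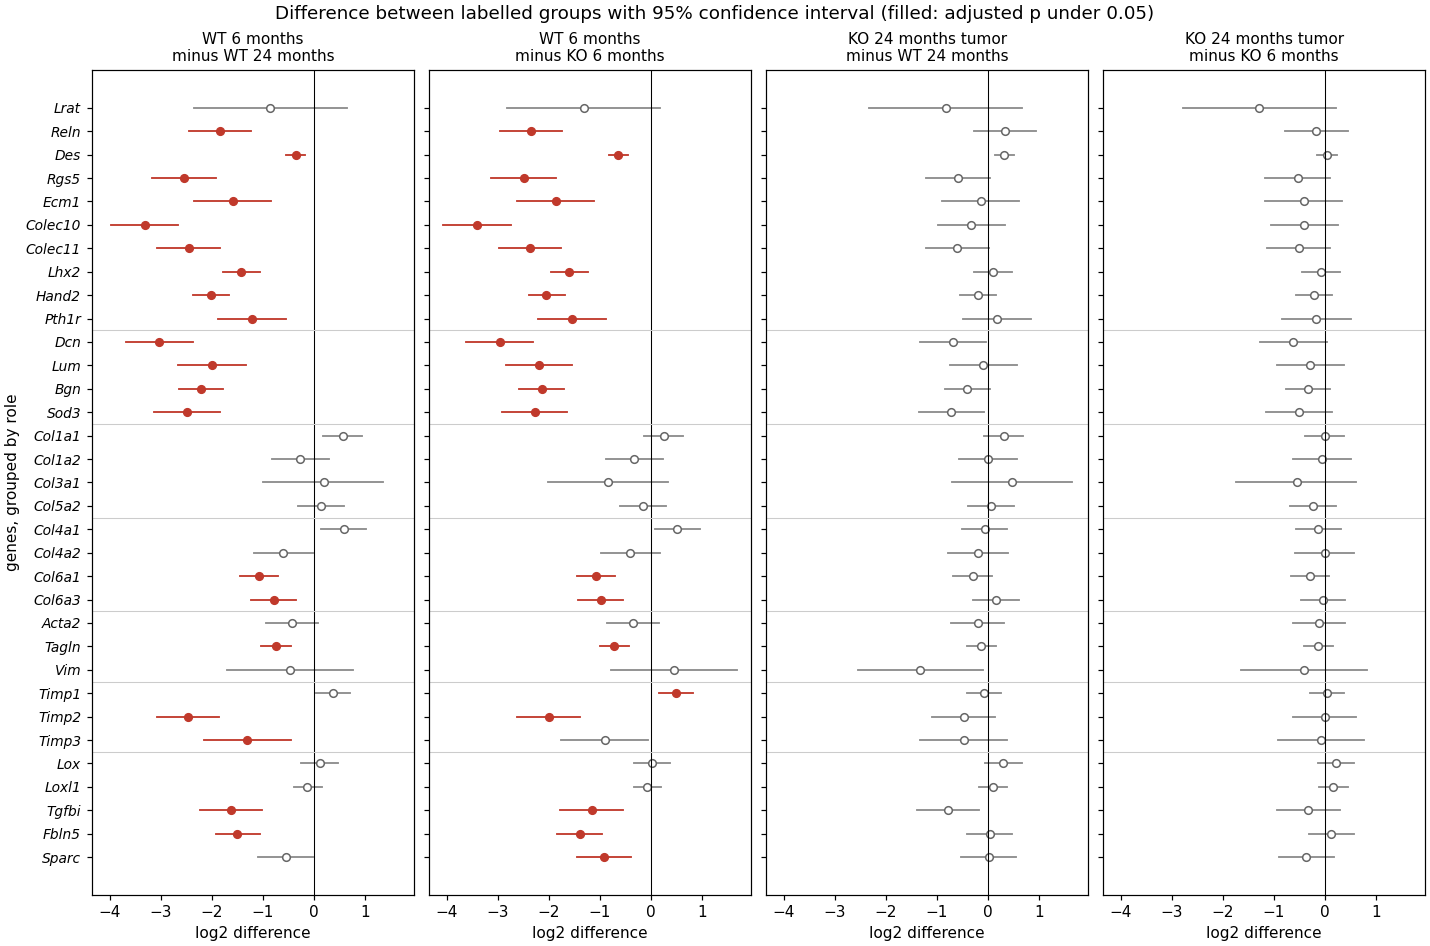
Log2 difference between labelled groups for each of the 33 genes, with its 95% confidence interval from limma, for 4 comparisons, where filled red points mark an adjusted p under 0.05. In the panels of WT 6 months against WT 24 months and against KO 6 months 20 and 21 points are filled, and none is filled in the panels of KO 24 months tumor.

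Quiescent stellate markers fell together in the arrays labelled WT 6 months. Compared with WT 24 months 9 of the 10 were lower, with a median of -1.72, and compared with KO 6 months again 9 of 10, with a median of -1.95. Lrat, read from its brighter probe set, was the exception in both. Mean log2 intensity over the 10 genes was 6.19 to 6.79 in the arrays labelled WT 6 months, 8.30 to 8.71 in KO 6 months, 8.12 to 8.41 in WT 24 months and 8.05 to 8.22 in the arrays labelled KO 24 months tumor.

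Colec10 had the largest difference of the 33. It codes for a soluble collectin, a lectin that binds sugars on microbes and starts the lectin pathway of complement. Its 3 values were 6.70, 5.4 and 5.50 in arrays labelled WT 6 months, 9.17, 9.16 and 9.49 in KO 6 months, 8.76, 9.25 and 9.56 in WT 24 months, and 8.97, 8.77 and 8.84 in the arrays labelled KO 24 months tumor. The first group lay more than 2 units below the lowest of the other arrays. Among those 9 arrays, WT 24 months overlapped with both KO 6 months and the arrays labelled KO 24 months tumor, which did not overlap with each other. The difference from WT 24 months was -3.32 (SE 0.30, limma adjusted p = 3.78e-05), and that from KO 6 months was -3.41 (SE 0.30, limma adjusted p = 2.82e-05).

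Colec11 codes for the partner collectin, with which the Colec10 protein forms mixed complexes. It read 8.35, 7.21 and 8.05 in the arrays labelled WT 6 months, against values of 9.47 to 10.81 in the 9 others, so that the ranges did not overlap. The difference from WT 24 months was -2.46 (SE 0.28, limma adjusted p = 1.75e-04), a 5.50-fold lower level.

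Reln codes for reelin, a large secreted glycoprotein best known from the brain, which in liver is made by stellate cells. Its values were 8.78, 7.32 and 7.85 in arrays labelled WT 6 months, 10.45, 10.29 and 10.28 in KO 6 months, 9.60, 9.80 and 10.08 in WT 24 months, and 10.22, 10.22 and 10.05 in the arrays labelled KO 24 months tumor. All 3 of the first group were below the other 9, although they also spread most among themselves, with an SD of 0.74. The differences were -1.84 from WT 24 months (SE 0.28, limma adjusted p = 0.0013) and -2.36 from KO 6 months (SE 0.28, limma adjusted p = 2.18e-04).

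Rgs5, which dampens G protein signaling and is a classical pericyte gene, read 8.94, 7.57 and 8.47 in the arrays labelled WT 6 months. It read 10.75, 10.83 and 10.91 in KO 6 months, 10.46, 10.92 and 11.25 in WT 24 months, and 10.37, 10.26 and 10.24 in the arrays labelled KO 24 months tumor. The ranges were apart by over 1 unit, and the difference from WT 24 months, -2.55 (SE 0.29, limma adjusted p = 1.71e-04), amounted to 5.85-fold. All 3 of its other probe sets differed in the same direction, by -0.86, -2.29 and -2.03, of which the first did not pass (limma adjusted p = 0.228 over all probe sets).

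The transcription factors of the list behaved alike. Hand2, a basic helix-loop-helix factor of mesenchymal cells, gave 5.23, 5.21 and 5.47 in the arrays labelled WT 6 months, against 7.04 to 7.71 in the 9 others, without overlap. Its difference from WT 24 months was -2.02 (SE 0.16, limma adjusted p = 1.66e-05). The other Hand2 probe sets were dimmer, differed by -0.53 and -0.07, and did not pass. Lhx2, a LIM homeodomain factor known to hold stellate cells quiescent, gave 3.98, 4.43 and 4.27 against 5.52 to 6.16, a difference from WT 24 months of -1.43 (SE 0.17, limma adjusted p = 2.30e-04).

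Ecm1, which codes for a secreted matrix glycoprotein, was lower by 1.59 on the log2 scale than in WT 24 months, although 1 of its 3 values in the arrays labelled WT 6 months, 9.74, came close to the lowest of the others at 10.02. Pth1r, the receptor of parathyroid hormone, differed by -1.21 (SE 0.31) and Des, which codes for the intermediate filament desmin, by -0.36 (SE 0.09). The difference of Des was small but its groups were tight: 6.45 to 6.56 in the arrays labelled WT 6 months, 6.84 to 6.93 in WT 24 months, 7.06 to 7.23 in KO 6 months and 7.13 to 7.25 in the arrays labelled KO 24 months tumor. The second Des probe set went the other way by 0.11, and with the mean of both Des did not pass against WT 24 months, at -0.13.

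Lrat codes for the enzyme that esterifies retinol for storage and is the marker most particular to stellate cells, yet its brighter probe set gave no call. Its values were 3.74, 3.93 and 4.69 in arrays labelled WT 6 months, 6.76, 3.76 and 5.81 in KO 6 months, 5.25, 5.97 and 3.73 in WT 24 months, and 4.25, 4.17 and 4.05 in the arrays labelled KO 24 months tumor. Both middle groups held high and low arrays and overlapped with all others. The difference from KO 6 months was -1.32 (95% confidence interval -2.82 to 0.18, limma adjusted p = 0.221), and without KO 6 months replicate 2 it was -2.17 and passed. The other Lrat probe set, with group means of only 3.62 to 4.09, was lower than in KO 6 months, at -0.47 (limma adjusted p = 0.0398 over all probe sets), and differed from WT 24 months by -0.13 (limma adjusted p = 0.689 over all probe sets).

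**Figure D3:**
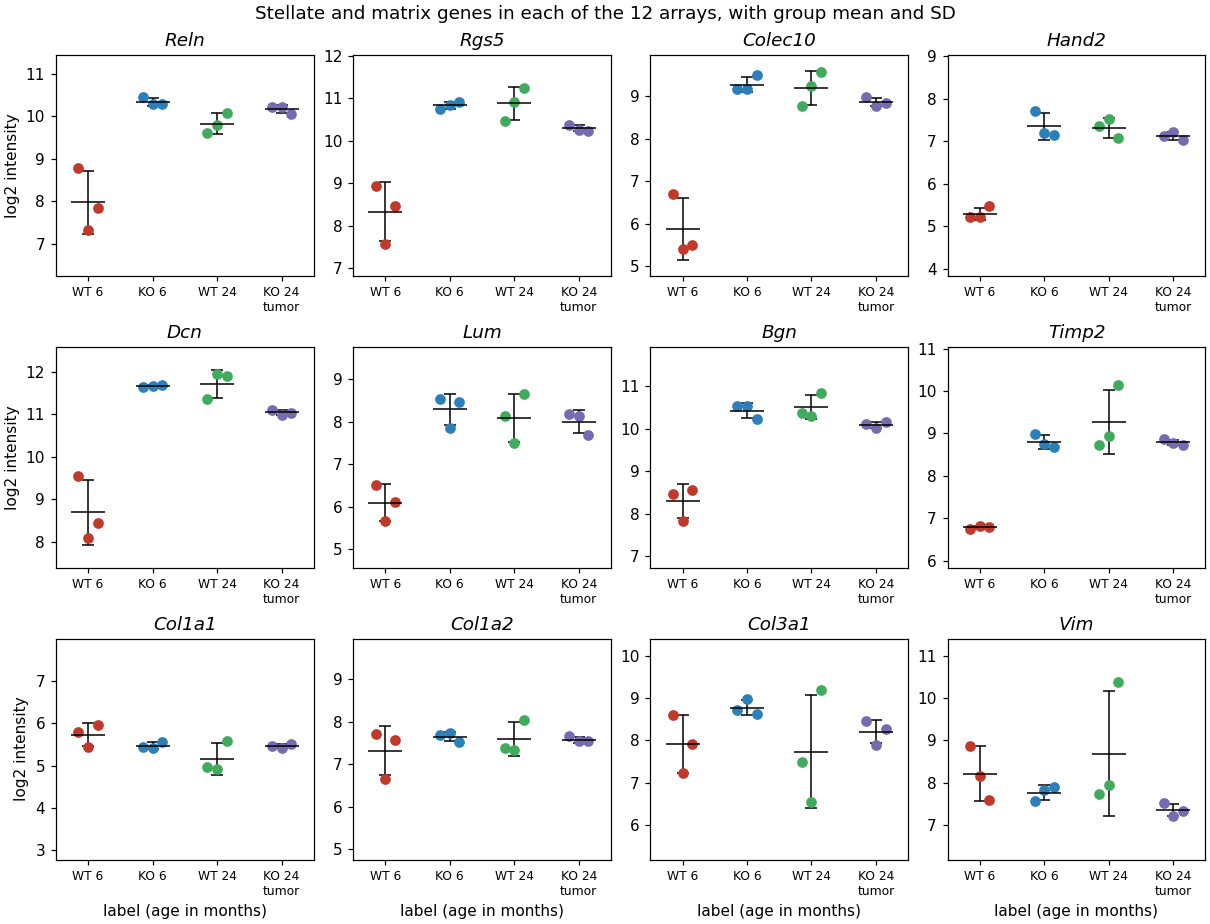
Log2 intensity of 12 of the genes in each of the 12 arrays by labelled group, with the group mean and SD (n = 3); every panel spans the same number of log2 units. Reln, Rgs5, Colec10, Hand2, Dcn, Lum, Bgn and Timp2 have all 3 arrays labelled WT 6 months below the other 9, whereas Col1a1, Col1a2, Col3a1 and Vim overlap between groups.

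All 4 genes of the proteoglycan group were lower in the arrays labelled WT 6 months, with a median of -2.36 against WT 24 months and -2.24 against KO 6 months. Decorin, lumican and biglycan are small leucine-rich proteoglycans that bind collagen fibrils and growth factors. Sod3 is the extracellular superoxide dismutase, which is held at the cell surface and in matrix by heparan sulfate.

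Dcn read 9.55, 8.08 and 8.43 in arrays labelled WT 6 months, 11.63, 11.67 and 11.68 in KO 6 months, 11.35, 11.94 and 11.89 in WT 24 months, and 11.10, 10.99 and 11.02 in the arrays labelled KO 24 months tumor. The first group was far below all others, and the last lay just below both remaining groups without overlapping them. Its difference from WT 24 months was -3.04 (SE 0.30, limma adjusted p = 6.57e-05), or 8.21-fold.

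Bgn gave 8.47, 7.82 and 8.56 in the arrays labelled WT 6 months, against 10.02 to 10.84 elsewhere, a difference from WT 24 months of -2.22 (SE 0.20, limma adjusted p = 3.32e-05). Its 2 other probe sets differed by -1.87 and -2.15. Lum gave 6.51, 5.66 and 6.10 against 7.50 to 8.64, a difference of -2.0 (SE 0.30). For Sod3 the values were 6.78, 6.04 and 6.50 against 7.71 to 9.37, a difference of -2.49 (SE 0.29). None of these ranges overlapped.

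The fibrillar collagens, the bulk of scar matrix, did not follow. None of the 4 passed in any of the comparisons, and their median difference was 0.16 against WT 24 months and -0.24 against KO 6 months. Col1a1 codes for one chain of type I collagen and read 5.78, 5.43 and 5.95 in arrays labelled WT 6 months, 5.43, 5.42 and 5.56 in KO 6 months, 4.96, 4.92 and 5.58 in WT 24 months, and 5.47, 5.41 and 5.50 in the arrays labelled KO 24 months tumor. The groups overlapped. The difference from WT 24 months was 0.57 (95% confidence interval 0.18 to 0.95, limma adjusted p = 0.0554), and it passed without WT 24 months replicate 3, at 0.78.

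Col1a2, the other chain of type I collagen, differed by -0.27 from WT 24 months (95% confidence interval -0.83 to 0.29). Col5a2, a chain of type V collagen, which starts fibril assembly, differed by 0.13 (95% confidence interval -0.32 to 0.58). The interval of Col1a2 excludes a change as large as those of the proteoglycans, whose smallest difference was -2.0. Col5a2 read 4.53 to 5.31 in the arrays labelled WT 6 months and 4.66 to 5.22 in the others. These values lie below the array medians of 5.41 to 5.45, and how far a fall could be read at that level is not known, so its interval cannot decide this. Col1a1, at 4.92 to 5.95, lay around these medians, and the same limit holds for it.

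Col3a1, which codes for type III collagen, was the most scattered of the matrix genes. It gave 8.61, 7.23 and 7.92 in arrays labelled WT 6 months, 8.71, 8.97 and 8.63 in KO 6 months, 7.49, 6.54 and 9.19 in WT 24 months, and 8.46, 7.90 and 8.26 in the arrays labelled KO 24 months tumor. WT 24 months held both the lowest and the highest of the 12 values, so that its SD of 1.34 left a wide interval, -0.99 to 1.36 around a difference of 0.19.

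The start regions of 24 of the 33 genes were found in RefSeq (GRCm38.p6), as windows of 300 bases. E-boxes, spelled CANNTG and the same on both strands, bind basic helix-loop-helix factors such as the Hand2 product, and were in the windows of 17 of the 24 (70.8%), against 75% of 27025 genes. The homeodomain core TAATTA, also its own reverse complement, was in 3 of the 24 (12.5%; Hand2, Pth1r and Fbln5) against 6.12% of all genes. The TATA box TATAAA, searched on both strands, was in 3 (12.5%; Ecm1, Col3a1 and Vim) against 15.7%. None of these motifs contains another, although matches can share letters. The 100 bases before the start are shown for 3 genes that were lower in the arrays labelled WT 6 months (Rgs5, Reln, Bgn) and for 2 fibrillar collagens that were not (Col1a2, Col3a1), 5′ to 3′ on the strand of the gene, with E-boxes in capitals.
Rgs5, chr1:169655401-169655500, plus strand: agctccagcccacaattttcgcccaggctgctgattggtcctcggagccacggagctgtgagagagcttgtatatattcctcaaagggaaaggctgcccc
Reln, chr5:22344706-22344805, minus strand: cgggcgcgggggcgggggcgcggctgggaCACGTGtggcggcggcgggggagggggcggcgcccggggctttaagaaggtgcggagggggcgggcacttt
Bgn, chrX:73483501-73483600, plus strand: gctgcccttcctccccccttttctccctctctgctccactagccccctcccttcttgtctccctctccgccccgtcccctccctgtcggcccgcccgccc
Col1a2, chr6:4505518-4505617, plus strand: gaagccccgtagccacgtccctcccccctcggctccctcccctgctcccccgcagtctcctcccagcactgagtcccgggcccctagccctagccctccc
Col3a1, chr1:45311438-45311537, plus strand: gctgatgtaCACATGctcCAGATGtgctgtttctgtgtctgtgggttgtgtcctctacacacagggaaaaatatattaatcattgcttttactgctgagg
The Reln stretch is 81% G and C and holds 1 E-box, and that of Col3a1 is 43% G and C and holds 2. Rgs5, Bgn and Col1a2 have none in these 100 bases. A match is a match of letters and says nothing of binding.

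Among the other collagens the 4 genes divided. Type VI collagen forms beaded microfibrils, and both of its measured chains in the list were lower in the arrays labelled WT 6 months. Col6a1 gave 5.46, 4.95 and 4.99 there and 5.77 to 6.48 in the 9 others, a difference from WT 24 months of -1.08 (SE 0.17, limma adjusted p = 0.00161). Col6a3 gave 5.88, 5.59 and 5.72 against 6.23 to 7.04, a difference of -0.79 (SE 0.20, limma adjusted p = 0.0236).

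Type IV collagen forms the network of basement membranes, and its chains α1 and α2 are coded by Col4a1 and Col4a2, which lie head to head. In RefSeq the transcripts overlap by 22 bases at their starts on chromosome 8 (Col4a2 on the plus strand from 11312805, Col4a1 on the minus strand from 11312826, GRCm38.p6). Col4a1 read 9.10, 9.10 and 9.17 in the arrays labelled WT 6 months, against 8.13 to 9.02 in the 9 others, which it did not overlap. Its difference was 0.65 (SE 0.20, limma adjusted p = 0.0435) from the arrays labelled KO 24 months tumor, and it did not pass against WT 24 months (0.58, limma adjusted p = 0.0842) or KO 6 months (0.51, limma adjusted p = 0.11). The second Col4a1 probe set differed from WT 24 months by -0.05, so that the higher level rests on 1 probe set. Col4a2 read 7.77, 7.21 and 8.23 in the same arrays, overlapped with the others at 7.98 to 8.93, and differed from WT 24 months by -0.60 (95% confidence interval -1.18 to -0.01, limma adjusted p = 0.184).

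Of the contractile and activation genes only Tagln passed. Transgelin, its product, binds actin filaments in smooth muscle and myofibroblasts. Tagln gave 6.46, 6.13 and 6.02 in the arrays labelled WT 6 months, against 6.73 to 7.10 in the others, a difference from WT 24 months of -0.74 (SE 0.13, limma adjusted p = 0.00315). Acta2, which codes for α-smooth muscle actin, the usual sign of stellate cell activation, gave 7.09, 6.75 and 6.74 there and 6.77 to 7.82 elsewhere. These ranges overlapped, and its difference from WT 24 months was -0.44 (95% confidence interval -0.95 to 0.07).

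Vim, which codes for vimentin, read 8.88, 8.17 and 7.61 in arrays labelled WT 6 months, 7.58, 7.83 and 7.91 in KO 6 months, 7.75, 7.94 and 10.38 in WT 24 months, and 7.53, 7.22 and 7.33 in the arrays labelled KO 24 months tumor. The single value of 10.38, from WT 24 months replicate 3, stood apart from the other 11. That array also had a mean of 11.91 over 9 Kupffer cell genes, against 7.48 to 9.17 in the 11 others. It held the highest values of many of the 33 genes, among them Timp2 (10.13), Tgfbi (10.35), Col3a1 (9.19), Rgs5 (11.25), Colec11 (10.81) and Bgn (10.84). Its means over all 33 genes (8.17) and over 10 sinusoidal endothelium genes (8.86) were the highest of the 12 arrays, while that over the quiescent stellate markers (8.35) was not. Its mean correlation with its own group was 0.972, against 0.979 to 0.995 for the other arrays. The part of Kupffer cell RNA in these values was not tested. Without it 20 of the 33 genes were again called against WT 24 months, with Col1a1 and Col4a1 gained at 0.78 and 0.82, and Pth1r and Timp3 no longer past the threshold at -1.06 and -1.13.

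The tissue inhibitors of metalloproteinases, which block the enzymes that degrade matrix, went in both directions. Timp2 gave 6.75, 6.82 and 6.81 in arrays labelled WT 6 months, 8.98, 8.75 and 8.68 in KO 6 months, 8.72, 8.95 and 10.13 in WT 24 months, and 8.86, 8.77 and 8.74 in the arrays labelled KO 24 months tumor. The first group was tight and nearly 2 units below the lowest other array, with a difference of -2.48 from WT 24 months (SE 0.28, limma adjusted p = 1.67e-04) and -2.01 from KO 6 months (SE 0.28, limma adjusted p = 5.94e-04). Its 5 other probe sets all differed from WT 24 months in the same direction, by -0.13 to -1.72. Of these only the ones at -0.61 and -1.72 passed over all probe sets.

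Timp1, the inhibitor most tied to liver fibrosis, read 5.75, 5.30 and 5.29 in the arrays labelled WT 6 months, against 4.73 to 5.18 in the 9 others, above all of them. It was higher than in KO 6 months by 0.49 (SE 0.15, limma adjusted p = 0.0429), but it did not pass against WT 24 months (0.37, limma adjusted p = 0.139), and the call against KO 6 months was lost without any of 8 single arrays. Timp3, which is bound to matrix, gave 7.43, 5.80 and 6.60 against 7.09 to 8.38 elsewhere, with overlap. Its difference of -1.31 from WT 24 months (SE 0.39, limma adjusted p = 0.0474) lay at the threshold, and against KO 6 months it was -0.91 (limma adjusted p = 0.14).

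Tgfbi and Fbln5 stood out among the crosslinking and matricellular genes. Tgfbi codes for an adhesion protein induced by transforming growth factor beta, and read 8.43, 7.75 and 8.0 in the arrays labelled WT 6 months, against 8.77 to 10.35 in the others, a difference from WT 24 months of -1.62 (SE 0.28, limma adjusted p = 0.00287). Fbln5, whose product fibulin 5 is needed to assemble elastic fibers, read 5.83, 5.04 and 5.64 against 6.76 to 7.21, a difference of -1.50 (SE 0.20, limma adjusted p = 5.30e-04). Neither range overlapped.

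Sparc, which codes for a collagen-binding matricellular protein, gave 9.80, 8.98 and 9.63 in those labelled WT 6 months, among which WT 24 months replicate 1 fell at 9.48. It passed against KO 6 months at -0.92 (SE 0.24, limma adjusted p = 0.0232) and not against WT 24 months at -0.55 (95% confidence interval -1.09 to -0.02, limma adjusted p = 0.18). A second Sparc probe set of similar brightness was lower in both, at -1.66 and -1.09 (limma adjusted p = 0.00341 and 0.0383 over all probe sets), and also against the arrays labelled KO 24 months tumor, at -1.34 (limma adjusted p = 0.00994 over all probe sets), so that the missing call against WT 24 months rests on the choice of probe set. Lox and Loxl1, which code for the enzymes that crosslink collagen and elastin, differed from WT 24 months by 0.11 (95% confidence interval -0.25 to 0.47) and -0.13 (95% confidence interval -0.40 to 0.15). With the mean of its probe sets Loxl1 passed, at -0.30. Both genes were dim, at 4.35 to 5.22 for Lox and 4.62 to 5.21 for Loxl1, below every array median. How far a fall could be read at such levels is not known.

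The interaction, the change with age in KO mice minus that in WT mice as labelled, keeps its value if the doubtful labels are exchanged. Its KO part runs from normal liver to tumor, so that age and tumor tissue cannot be told apart in it. In limma 16 of the 33 genes had a negative interaction that passed and 0 a positive one, with a median of -1.38 beside -0.0033 over all genes, where 2.24% of all genes were negative and 2.59% positive. By role these were 7 of 10 quiescent stellate markers, 4 of 4 of the proteoglycan group, Col6a1, Tagln, Timp2, Tgfbi, Fbln5 and none of the fibrillar collagens. The largest were Colec10 at -3.73 (SE 0.43, limma adjusted p = 5.05e-04), Dcn at -3.66 (SE 0.42, limma adjusted p = 5.17e-04) and Rgs5 at -3.09 (SE 0.41, limma adjusted p = 0.00127). The interaction uses the same 12 arrays as the comparisons above and is not a separate measurement.

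Where the arrays labelled WT 6 months were not involved, none of the 33 genes was called. Between the arrays labelled KO 24 months tumor and WT 24 months the median difference was -0.14, and limma called 0 in a background of 0.341% of all genes higher and 0.231% lower. Unadjusted, 5 had a p under 0.05, Des (0.31), Dcn (-0.69), Sod3 (-0.72), Tgfbi (-0.78) and Vim (-1.33), and SAM called 0. Without WT 24 months replicate 1, Tgfbi was called at -1.14.

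Between the arrays labelled KO 24 months tumor and KO 6 months the median was -0.17, and limma called 0 of the 33, with 0 at an unadjusted p under 0.05, in a background of 0.0330% (higher) and 0% (lower). SAM called 2, Rgs5 (-0.54) and Dcn (-0.62), and limma on these groups alone called Dcn. WT 24 months and KO 6 months, whose labels are not in doubt, differed by a median of -0.03, with 0 called by limma and by SAM, and 1, Des at -0.27, at an unadjusted p under 0.05. The background was 0.159% higher and 0.181% lower. Differences in that last comparison ran from -1.03 for Col3a1 to 0.92 for Vim. Its groups differ in both genotype and age, so neither effect can be read from it alone.

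Genes outside the list with known roles in the same cells and processes were counted too. These lists were also written with earlier results of these data known, so they are no independent check. Of 22 other stellate cell and pericyte genes 18 fell below WT 24 months in the arrays labelled WT 6 months, 16 fell below KO 6 months, and none was higher in either, beside backgrounds of 6.22% and 9.0% of all genes lower. They included Cxcl12, a chemokine (-2.26, limma adjusted p = 8.97e-06), Tcf21, a mesenchymal transcription factor (-2.22, limma adjusted p = 1.71e-05), Fgfr2, a fibroblast growth factor receptor (-1.99, limma adjusted p = 3.21e-05), and Vipr1, a receptor of vasoactive intestinal peptide (-1.94, limma adjusted p = 1.81e-05), all against WT 24 months. Their median of -1.06 was near that of the 33 genes, and 13 of the 22 had a negative interaction that passed, beside 2.24% of all genes. Between WT 24 months and KO 6 months 1 of them, Angptl6, which codes for an angiopoietin-like secreted protein, was called, at -0.77, and it was lost when any of 9 single arrays was left out.

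Vitamin A handling, the other hallmark of quiescent stellate cells, had calls in both directions. Of 17 genes measured 2 were higher and 2 lower than in WT 24 months, with a median of -0.03, where 7.07% of all genes were higher and 6.22% lower. Pnpla3, which codes for a lipase that releases retinol and fatty acids from lipid droplets, was higher by 2.19 (limma adjusted p = 1.71e-04), and Stra6, the retinol-binding protein receptor, by 0.64 (limma adjusted p = 0.0195), a call lost without replicate 1 or 2 of the arrays labelled WT 6 months or without WT 24 months replicate 2, at 0.54 to 0.57. Bco1, the enzyme that cleaves beta-carotene into retinal, was lower at -1.36 (limma adjusted p = 0.00325), and Rarg, a retinoic acid receptor, at -0.54 (limma adjusted p = 0.00743). Against KO 6 months 4 were higher and 4 lower, in a background of 8.04% and 9.0%. The higher included Pnpla3 at 2.46 and Cyp26a1, the enzyme that breaks down retinoic acid, at 1.84. The lower included Aldh1a3 at -0.50 and Dhrs3 at -0.79. Dhrs3 was lost without replicate 1 of the arrays labelled WT 6 months or of KO 6 months, at -0.68 and -0.69. Which cells these transcripts came from was not tested. Cyp26a1 was also lower in the arrays labelled KO 24 months tumor than in WT 24 months, at -2.01 (limma adjusted p = 0.0469), but this call was lost when any of 10 single arrays was left out. These recomputations for genes outside the 33 were added after the data were seen.

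Of 22 genes of transforming growth factor beta signaling, the pathway that drives stellate cell activation, 1 was higher and 3 were lower than in WT 24 months, beside 7.07% and 6.22% of all genes. Tgfbr2, the type II receptor, was higher by 1.89 (limma adjusted p = 0.00581). Ccn2, which codes for connective tissue growth factor, a target of the pathway, was lower at -2.95 (limma adjusted p = 4.16e-04), as were the inhibitor Smad7 at -1.48 and Ltbp1, which codes for a protein that holds the latent ligand in matrix, at -0.98. Among 43 other matrix genes 2 were higher and 7 lower, against the same background. Col8a1, a short-chain collagen of vessel walls, was higher by 3.92 (limma adjusted p = 1.18e-07), while Prelp, a leucine-rich matrix protein, was lower at -2.77 (limma adjusted p = 4.36e-05). Fbln1, which codes for fibulin 1, was higher by 1.17, and Fn1, which codes for fibronectin, was lower at -0.54.

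Markers of other liver cells were read from the same arrays. Sinusoidal endothelium moved with the stellate markers: in the arrays labelled WT 6 months 9 of 10 genes were lower than in WT 24 months and 8 of 10 than in KO 6 months, and the mean over the list was 6.36 to 7.05 there, against 8.15 to 8.33 in KO 6 months, 7.53 to 8.86 in WT 24 months and 8.02 to 8.18 in the arrays labelled KO 24 months tumor. Clec4g (-2.16), Kdr (-1.51), Eng (-1.26) and Stab1 (-1.06) were among those lower than in WT 24 months. The part of a general change in sinusoidal cells in the results above was not tested.

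The other lists had fewer calls, and each count is to be read beside the 6.22% of all genes lower and 7.07% higher than in WT 24 months. Against KO 6 months these shares were 9.0% and 8.04%. Of 10 portal fibroblast and mesothelium genes 4 were lower than in WT 24 months, all of them mesothelial (Upk3b at -1.71, Gpm6a at -1.55, Msln at -0.85 and Lrrn4 at -0.54), and 1, the portal fibroblast gene Entpd2, was higher at 1.05. The list means were 4.81 to 5.04 in the arrays labelled WT 6 months, 5.19 to 5.39 in KO 6 months, 5.22 to 5.51 in WT 24 months and 4.99 to 5.10 in the arrays labelled KO 24 months tumor. Gpm6a was also lower in the arrays labelled KO 24 months tumor than in WT 24 months, at -1.03 (limma adjusted p = 0.045), where 0.231% of all genes were lower. This call was lost when any of 10 single arrays was left out. The 8 smooth muscle genes gave 0 calls against WT 24 months, with list means of 5.15 to 5.21 in the arrays labelled WT 6 months, against 5.20 to 5.54 in the 9 others, while against KO 6 months Mylk was higher at 0.71 and Myh11 lower at -0.50, the latter lost without KO 6 months replicate 2, at -0.43. Kupffer cell genes gave 1 lower of 9 (Clec4f, -2.37), bile duct genes 1 lower of 5 (Krt7, -0.36) and hepatocyte genes 1 lower of 7 (Serpina1c, -0.66), so that each list rests on a single call. Clec4f, a lectin of Kupffer cells, read 9.05, 8.51 and 7.39 in those labelled WT 6 months and 9.58, 10.04 and 12.44 in WT 24 months. Its difference was -1.49 without WT 24 months replicate 3 (limma adjusted p = 0.0199), and it was lost without replicate 2 or 3 of those labelled WT 6 months, at -2.47 and -1.90. Krt7 was lost when any of 10 single arrays was left out. Serpina1c was lost without WT 24 months replicate 1, at -0.64, and was -0.41 without the third array labelled WT 6 months. The hepatocyte list mean was 14.49 to 14.70 in the arrays labelled WT 6 months and 14.74 to 14.85 in the 9 others, a small gap without overlap. Whether the share of hepatocyte RNA differed was not tested.

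**Figure D4:**
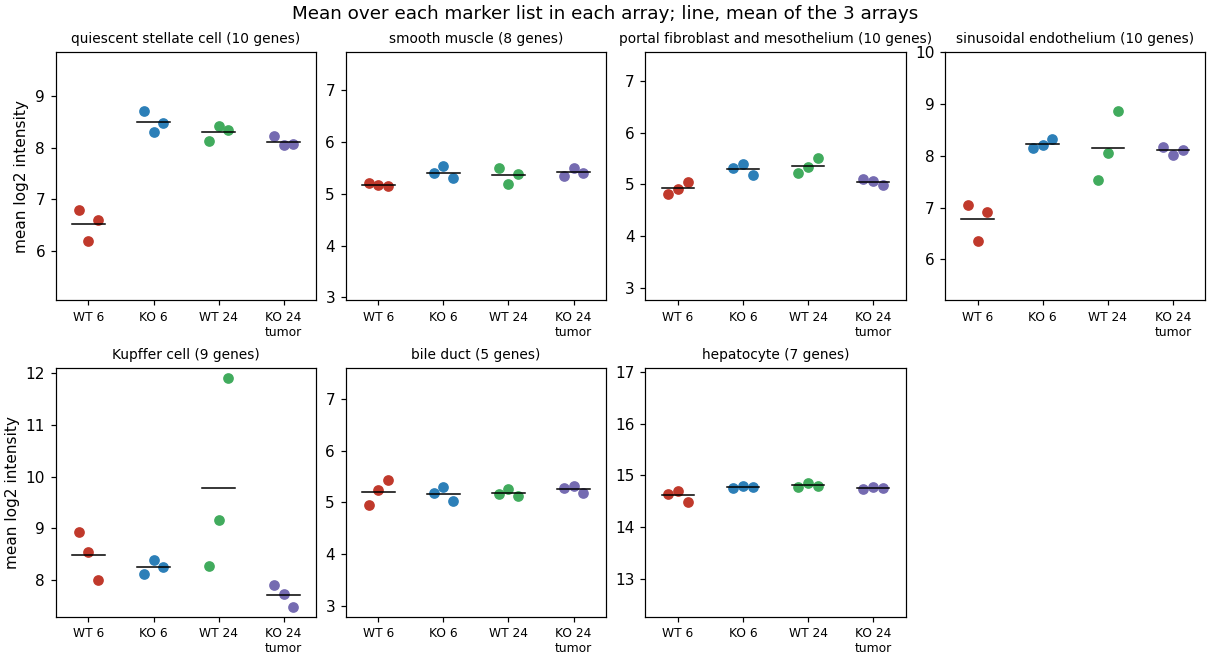
Mean log2 intensity over the genes of each of 7 cell type lists in each array, by labelled group, with a line at the mean of the 3 arrays; every panel spans the same number of log2 units. The quiescent stellate list reads 6.19 to 6.79 and the sinusoidal endothelium list 6.36 to 7.05 in the arrays labelled WT 6 months, below all others, and 1 array of WT 24 months stands out at 11.91 in the Kupffer cell list.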

How the data were processed

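Total RNA was extracted with Trizol and hybridized to Affymetrix Mouse Genome 430 2.0 arrays, 1 per mouse. The deposited values are log2 intensities, which the authors made by robust multi-array average (RMA) in the simpleaffy package of R (version not given in the sources used here); this subtracts background, gives all arrays 1 distribution and fits 1 value per probe set. The shared distribution makes each change relative to the other genes. Array medians were 5.41 to 5.45. No read depth exists for arrays, and their number, 3 per group, limits the precision.

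Of 45101 probe sets 34958 name 1 gene and 932 several, by the platform annotation, and the latter were left out. Each of 18194 genes was read from its probe set with the highest mean. Of the 33 genes 10 have 1 probe set and 23 have more. Of the 20 genes called against WT 24 months 12 have others, 24 in all. Of these 21 had the same sign, 10 passed with it over all probe sets, and 0 passed with the opposite sign. Those of Reln and Dcn differed by -0.08 and -0.23 and did not pass. The opposite signs were in Des (0.11), Fbln5 (0.20) and Timp3 (0.12).

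Groups came from the labels. The 4 group means were fitted in limma 3.58.1 (R 4.3.3), with all 12 arrays sharing 1 estimate of the spread, and a gene was called, and is written as higher or lower, at a Benjamini-Hochberg adjusted p under 0.05 over all genes, with no fold threshold. The script was checked on simulated data. Confidence intervals are 95%. The labels give biological replicates, so p-values measure the spread between mice. An exact permutation test of 3 against 3 cannot go below 0.1 (two-sided). SAM, written out from its definition, and the fold of 3 of the methods were alternatives. Replicate numbers were not used as a block, since same-numbered arrays deviated together in no regular way.

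The genes, the lists and the roles were chosen with earlier results of these data known. Named are all 33 genes. Genes of the other lists were picked from up to 4 with the smallest adjusted p in a comparison and from all that passed where 5 or fewer did. Not every such call is given, so a gene left unnamed in a comparison may still have been called there. Starts and promoter sequences come from RefSeq tables of GRCm38.p6, and motifs were searched 250 bases before to 50 after each start. Figures were drawn with matplotlib 3.10.9.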

Additional observations from a re-analysis of the deposited data

Results flagged for a closer look

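The change with age differed between the labelled genotypes in 16 of the 33 genes. The test was the interaction term of limma at an adjusted p under 0.05, and this is what brings them here. Over all genes 2.24% had a negative interaction that passed and 2.59% a positive one. The KO mice of 24 months gave tumors, so age and tumor tissue cannot be told apart in the interaction. Each value is the log2 change from 6 to 24 months in the KO arrays minus that in the WT arrays, as labelled, and is the same if the doubtful labels (WT 6 months, KO 24 months tumor) are exchanged. Among the quiescent stellate markers the values were -3.73 for Colec10, -3.09 for Rgs5, -2.98 for Colec11, -2.24 for Hand2, -2.02 for Reln, -2.0 for Ecm1 and -1.51 for Lhx2. In the proteoglycan group they were -3.66 for Dcn, -3.00 for Sod3, -2.55 for Bgn and -2.29 for Lum. The remaining values were -2.49 for Timp2, -1.95 for Tgfbi, -1.38 for Col6a1, -1.38 for Fbln5 and -0.87 for Tagln.

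In all 16 the arrays labelled WT 6 months were the lowest of the 4 groups. Ecm1 was the least firm of them and was lost when any of 9 single arrays was left out. Tagln was lost without KO 6 months replicate 2 or 3 or the first array labelled KO 24 months tumor, Tgfbi without the third of those, and Fbln5 without the second of those.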

How the results depend on the processing

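The calls of the chosen stellate cell and matrix genes were recomputed under the alternatives, and their medians by role under some of them. The interaction, which takes all groups, was recomputed neither by SAM nor with only the groups compared. For the other lists only the named genes were recomputed, leaving out 1 array at a time, and the list counts were not. In these recomputations no difference that passed changed its sign. Differences that did not pass changed sign in some settings, as did the median of the fibrillar collagens. Against WT 24 months the 20 genes called became 12 with a fold of 3, 13 in limma with only the groups compared, 13 by SAM and 9 by SAM with a fold of 3, the last added after the data were seen. Against KO 6 months the 21 became 12 with a fold of 3 and 12 by SAM with a fold of 3, and against the arrays labelled KO 24 months tumor the 19 became 10 and 10. Of KO 24 months tumor against KO 6 months, 0 became 1 with only the groups compared and 2 by SAM. Leaving out 1 array at a time gave 17 to 20 against WT 24 months, 17 to 22 against KO 6 months, 17 to 21 against KO 24 months tumor, 14 to 17 for the interaction, 21 to 23 genes outside the range of the 9 other arrays, 0 to 1 for KO 24 months tumor against WT 24 months, where the 1 is without WT 24 months replicate 1, and 0 in the 2 remaining comparisons. Medians against WT 24 months then ran from -1.92 to -1.52 (quiescent markers), -2.49 to -2.14 (proteoglycan group), -0.84 to -0.41 (network and microfibril collagens) and -1.72 to -0.90 (inhibitors). They ran from -0.19 to 0.53 for the fibrillar collagens, the extremes being without WT 24 months replicate 2 and replicate 3, from -0.85 to -0.38 for the contractile genes, and from -0.82 to -0.31 for the crosslinking genes, where -0.82 is without WT 24 months replicate 1. With the mean of all probe sets the medians against WT 24 months were -1.32 (quiescent markers), -2.04 (proteoglycan group) and -0.66 (inhibitors), and -1.58 for the quiescent markers against KO 6 months. The cause of these shifts was not tested.

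Replicate numbers did not pair the arrays: same-numbered arrays had correlations of their deviations of -0.16 to 0.19, with 2 of 18 over 0.1. With the replicate number as a block 20 genes were called against WT 24 months, 21 against KO 6 months, 19 against KO 24 months tumor and 16 for the interaction, and 0 in the other comparisons, the counts found without it. Col1a1 was gained and Timp3 lost against WT 24 months. Among the recomputed values of single genes 1534 passed both in the main setting and in the alternative, 154 were lost and 36 gained. Values that passed in neither were not counted. Centring on 4 housekeeping genes moved the median of all genes against WT 24 months to 0.14 and that of the interaction to 0.11. Under it Col1a1 (0.71) and Col4a1 (0.73) were called and Des (-0.22) was not.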
